A study of Mus musculus with 34 samples.

Results

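*Cyp7a1*, *Cyp8b1*, *Cyp27a1*, *Cyp7b1*, *Baat*, *Slc27a5*, *Slc10a1*, *Abcb11*, *Nr0b2* and *Fgfr4* encode enzymes, transporters and regulators of bile acid metabolism, and the binding of HDAC3, PROX1 and HNF4α was read at these 10 of 22367 protein-coding genes. Peaks were taken where their centres lay between 50 kb upstream of the transcription start site (TSS) of a gene and 2 kb past its end. The windows of the 10 genes held 56 of the 28631 peaks of the HDAC3 and PROX1 lists and 45 of the 24253 HNF4α peaks. HDAC3 is the deacetylase of the NCoR/SMRT co-repressor complexes, PROX1 is a homeobox transcription factor, and HNF4α is a nuclear receptor that governs hepatocyte genes. All positions are on mm9 (NCBIM37).

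ChIP-seq, the sequencing of DNA fragments pulled down with an antibody against a chromatin factor, was done on livers collected at zeitgeber time 10, that is 10 h after lights on. HDAC3 and PROX1 were mapped in 3 control livers each (C57B/6 males, 10 weeks old, with no further genotype or treatment in the labels), and HNF4α in 2 livers of HNF4A floxed mice of the same strain, sex and age. In these floxed mice the *Hnf4α* gene was not deleted, and by the methods they served as the control for hepatocyte deletion and received an AAV8 vector with the hepatocyte promoter TBG and a green fluorescent protein in place of Cre. The authors pooled the replicates and deposited 1 peak list per factor, so the binding of HNF4α and that of HDAC3 and PROX1 was read in different mice, no spread between livers can be computed, and no comparison below carries a test. A floxed allele and an AAV vector set the HNF4α livers apart from the others, and any effect of these on the overlap cannot be told apart from that of the antibody.

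The HDAC3 and PROX1 lists give positions of peaks of 200 bp with no score or read count, and the reads behind each are unknown. Peaks listed with the same coordinates for both factors are called co-bound, a class made by the authors, and the remainder HDAC3-only or PROX1-only. By the paper, the HDAC3 and PROX1 lists have unlike limits on reads. Shared peaks had to overlap by at least 50%, and needed only a lower signal of the other factor. The words only, alone and without thus mean that a factor was not listed, and signal under a limit may be present. The HNF4α list adds a HOMER score per peak, which ran from 20.3 to 160.2 with a median of 41.9 and ranks peaks within that list. HNF4α was said to be on an HDAC3 or PROX1 peak where a single HNF4α peak covered at least 50% of its length. Confidence intervals (Wilson, 95%) reflect only the number of peaks counted, and peaks of a window share their neighbourhood.

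Bile acids are made from cholesterol in hepatocytes. The classic pathway begins with hydroxylation of the sterol ring by CYP7A1 and the acidic pathway with side-chain oxidation by CYP27A1, and the products are conjugated, exported into bile and recovered from the intestine. Returning bile acids restrain their own synthesis, through the receptor FXR and the co-repressor SHP in the liver and through an intestinal growth factor that acts on FGFR4. HNF4α and LRH-1 are known activators of *Cyp7a1* and *Cyp8b1*.

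The promoter sequences below show what lay under the binding. For 6 of the 7 genes with a co-bound peak within 1 kb of their TSS, the peak nearest to a TSS is given from the NCBIM37 assembly, 5′ to 3′ in the direction of the gene, and where a peak spanned the TSS only the bases before it are given. Capitals mark matches to the HNF4 consensus CAAAGTCCA with at most 1 mismatch on either strand. *Cyp8b1* (minus strand, chr9:121825424-121825600), *Baat* (minus, chr4:49519430-49519506) and *Slc10a1* (minus, chr12:82069008-82069207) carried HNF4α on these peaks, and *Cyp27a1* (plus, chr1:74759919-74760118), *Abcb11* (minus, chr2:69180672-69180839) and *Nr0b2* (plus, chr4:133108947-133109146) did not.
Cyp8b1 promoter: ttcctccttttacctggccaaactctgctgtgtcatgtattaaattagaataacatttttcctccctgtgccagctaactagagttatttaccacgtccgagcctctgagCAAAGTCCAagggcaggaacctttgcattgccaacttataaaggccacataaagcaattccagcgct
Baat promoter: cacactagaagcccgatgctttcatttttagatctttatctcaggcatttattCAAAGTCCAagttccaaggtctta
Slc10a1 promoter: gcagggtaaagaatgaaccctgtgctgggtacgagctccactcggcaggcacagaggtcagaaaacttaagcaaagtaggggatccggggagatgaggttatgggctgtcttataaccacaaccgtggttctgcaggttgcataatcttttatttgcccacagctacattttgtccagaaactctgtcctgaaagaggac
Cyp27a1 promoter: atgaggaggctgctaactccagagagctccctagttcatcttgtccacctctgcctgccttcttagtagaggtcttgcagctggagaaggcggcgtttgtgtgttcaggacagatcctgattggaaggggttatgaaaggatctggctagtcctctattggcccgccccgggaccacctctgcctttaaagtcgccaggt
Abcb11 promoter: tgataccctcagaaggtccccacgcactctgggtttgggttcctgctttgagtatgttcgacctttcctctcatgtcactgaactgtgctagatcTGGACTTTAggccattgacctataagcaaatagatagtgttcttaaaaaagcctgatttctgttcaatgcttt
Nr0b2 promoter: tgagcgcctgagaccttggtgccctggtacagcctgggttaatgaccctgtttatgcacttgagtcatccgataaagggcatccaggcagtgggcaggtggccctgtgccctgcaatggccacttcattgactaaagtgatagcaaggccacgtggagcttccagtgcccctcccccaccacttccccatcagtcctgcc

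The co-bound peak with the highest HNF4α score over the 10 genes lay upstream of *Slc10a1* (minus strand of the gene, chr12:82077038-82077237) and is shown for that score. It holds no HNF4 match. The HDAC3-only peak of these windows (chr9:121860989-121861188, in the direction of *Cyp8b1*) is shown with the exact nuclear receptor hexamer AGGTCA and its complement in capitals.
Slc10a1 upstream: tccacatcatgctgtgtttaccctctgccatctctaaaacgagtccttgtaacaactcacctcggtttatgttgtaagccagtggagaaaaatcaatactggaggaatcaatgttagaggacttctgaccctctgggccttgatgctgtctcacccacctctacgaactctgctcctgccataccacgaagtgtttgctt
Cyp8b1 window, HDAC3-only: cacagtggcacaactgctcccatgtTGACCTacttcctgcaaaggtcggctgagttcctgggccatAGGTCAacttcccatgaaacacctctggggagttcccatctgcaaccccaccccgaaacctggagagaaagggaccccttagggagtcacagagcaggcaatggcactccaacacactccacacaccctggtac

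At *Slc27a5* (minus strand, chr7:13583542-13583606) and *Fgfr4* (plus strand, chr13:55254447-55254614) HNF4α was called near the TSS without HDAC3 or PROX1. These sequences were chosen after their values were seen, with HNF4 matches in capitals, and that of *Slc27a5* ends before its TSS.
Slc27a5 promoter, HNF4α alone: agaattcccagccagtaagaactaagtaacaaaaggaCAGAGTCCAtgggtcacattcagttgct
Fgfr4 promoter, HNF4α alone: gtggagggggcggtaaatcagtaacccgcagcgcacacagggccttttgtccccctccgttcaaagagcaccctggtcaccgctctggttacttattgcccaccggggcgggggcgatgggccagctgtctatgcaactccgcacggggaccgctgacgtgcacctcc

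Of the 56 HDAC3 and PROX1 peaks in the 10 windows, 45 were co-bound, 10 were PROX1-only and 1 was HDAC3-only. At least 1 co-bound peak lay in the windows of 9 of the 10 genes, all but *Fgfr4*, against 38.4% of all protein-coding genes by the same rule. The same 9 genes had a co-bound peak with HNF4α (31.1% of all genes), and all 10 had an HNF4α peak (49.7% of all genes). PROX1-only peaks lay in the windows of *Cyp27a1*, *Cyp7b1*, *Baat* and *Slc27a5*, or 4 of 10 genes (25.2% of all genes), and the HDAC3-only peak in the window of *Cyp8b1*, 1 of 10 genes (7.4% of all genes). The windows had a median length of 67.5 kb against 67.4 kb over all genes, but those of *Cyp7b1* (223.4 kb) and *Abcb11* (156.3 kb) were longer. Together the 10 windows held 5.04 co-bound peaks per 100 kb against 1.25 (summed over windows, which overlap between neighbouring genes in the genome-wide value). The percentages of genes with fewer peaks, given below, rest on counts that are not scaled by window length. The all-gene values include genes that are silent in liver, and the part of liver expression in the difference was not tested.

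**Figure D1:**
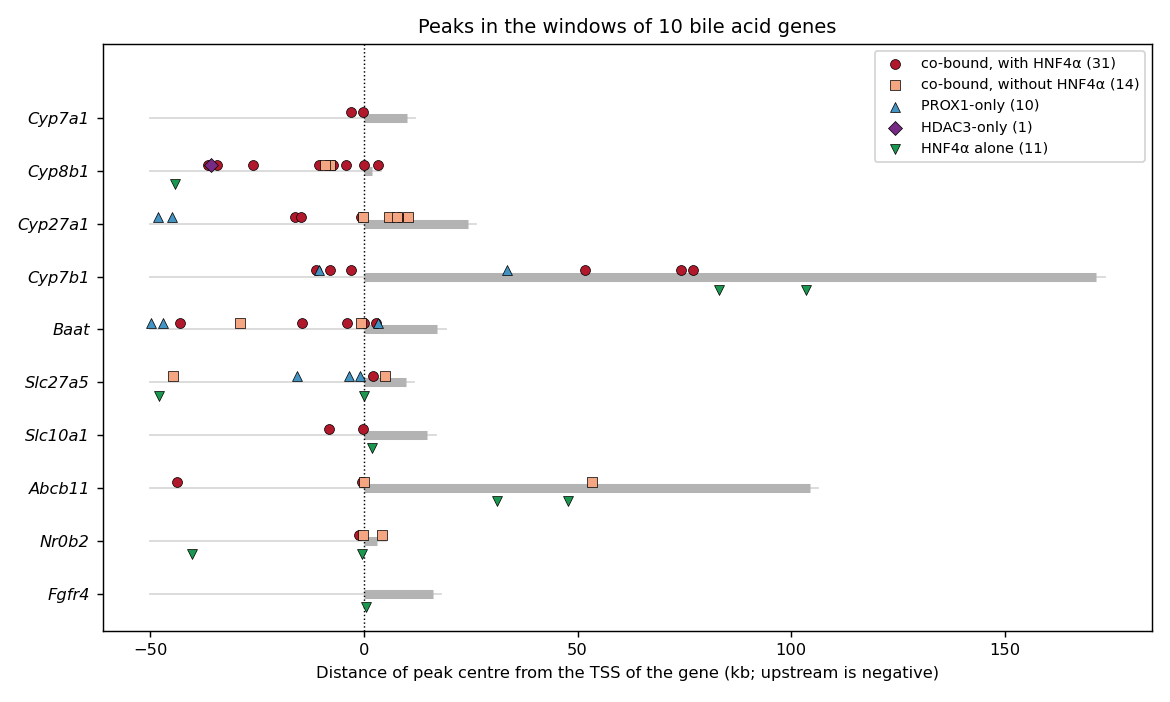
Each row is the window of a gene, with the gene as a thick grey bar, and each symbol is a peak centre at its distance from the TSS in kb (negative is upstream, to the left). Co-bound peaks with HNF4α (31) and without it (14) lie around the TSS, in the 50 kb upstream that the windows take in, and inside the genes. The *Cyp7b1* peaks extend to 77.1 kb inside the gene, and *Fgfr4* shows an HNF4α peak alone.

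The windows of the 4 cytochrome P450 genes of synthesis held 26 co-bound peaks, from 2 at *Cyp7a1* to 10 at *Cyp8b1*. This order depends on the window. With 10 kb upstream *Cyp8b1* and *Cyp27a1* had 6 each, and by nearest TSS *Cyp27a1* had 8 and *Cyp7a1*, *Cyp8b1* and *Cyp7b1* 7 each. *Cyp7a1* encodes cholesterol hydroxylase of the sterol ring, the rate-limiting enzyme of the classic pathway, and lies at chr4:6192759-6202780 on the minus strand. Its window held 2 co-bound peaks and no other HDAC3 or PROX1 peak, and HNF4α covered both. The peak at -164 bp in the promoter had an HNF4α score of 94.7, above 94.8% of the HNF4α list, and the peak at -3033 bp (chr4:6205713-6205912, intergenic) a score of 59.4. LRH-1 binds an extended hexamer site, TCAAGGTCA, and both peaks held a match to it and to the HNF4 consensus with at most 1 mismatch. Of all genes, 74.7% had fewer co-bound peaks. A further 5 co-bound peaks lay between 12.7 and 36.4 kb downstream of the TSS, past the edge of the window, with *Cyp7a1* as their nearest gene.

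*Cyp8b1* encodes the sterol hydroxylase that directs synthesis towards cholic acid, and lies at chr9:121823474-121825423 on the minus strand as a gene of 1.95 kb. Its window held 10 co-bound peaks, more than 98.6% of all genes, of which 8 carried HNF4α. The 8 HNF4α scores were 23.1, 30.6, 51.4, 59.8, 67.4, 77.7, 91.4 and 91.9. The highest scores were thus at the promoter peak at -78 bp, whose sequence holds the exact consensus CAAAGTCCA at bases 111 to 119, and at the peak at -10529 bp (chr9:121835852-121836051). A group of 6 co-bound peaks lay between -10529 and -78 bp, including the pair at -7814 and -9051 bp that HNF4α did not touch. The peaks at -25905, -34257 and -36483 bp lay nearer to the TSS of other genes, 1700048O20Rik and *Fam198a*. The HDAC3-only peak at -35666 bp lay between the last 2 of these, at -763 bp from the TSS of *Fam198a*, and without HNF4α.

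*Cyp27a1* encodes the mitochondrial sterol hydroxylase that opens the acidic pathway, and lies at chr1:74760148-74784464 on the plus strand. It had 8 co-bound peaks, more than 97.1% of all genes, of which 4 carried HNF4α with scores of 39.6, 48.5, 51.4 and 68.3. The promoter held 2 co-bound peaks, of which the nearer at -129 bp lacked HNF4α and the other at -682 bp (chr1:74759366-74759565) carried it with a score of 48.5. The highest score, 68.3, was at -14679 bp (chr1:74745369-74745568), in an exon of the neighbouring gene *Ttll4*. In its introns lay 4 co-bound peaks from 5.87 to 10.4 kb past the TSS, of which 1 carried HNF4α and another was touched over 24.5% of its length. The pair of PROX1-only peaks lay in introns of *Ttll4*, the nearer at -44976 bp (chr1:74715072-74715271), and neither carried HNF4α.

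*Cyp7b1*, the oxysterol hydroxylase of the acidic pathway, lies at chr3:17971950-18143338 on the minus strand, and all 6 of its co-bound peaks carried HNF4α. None lay within 1 kb of its TSS, and the nearest was at -3115 bp (chr3:18146353-18146552) with a score of 22.6, the lowest of the 31. The scores of the others were 29.2, 52.3, 54.7, 80.1 and 87.6. The highest was inside the gene at 51.8 kb past the TSS (chr3:18091393-18091592), and 3 of the 6 lay in introns between 51.8 and 77.1 kb. Of its PROX1-only peaks the nearer was at -10435 bp (chr3:18153673-18153872), and neither carried HNF4α. Over the 4 synthesis genes together, HNF4α covered 20 of 26 co-bound peaks, or 76.9% (95% CI 57.9 to 89.0).

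The conjugation genes *Baat* and *Slc27a5* differed from each other in their promoters. *Slc27a5* encodes the bile acyl-CoA synthetase that activates bile acids, and *Baat* the enzyme that then joins them to taurine or glycine. *Baat* lies at chr4:49502294-49519429 on the minus strand and had 7 co-bound peaks, more than 95.9% of all genes, of which 5 carried HNF4α with scores of 30.2, 37.2, 41.0, 42.4 and 52.8. Of these 5 the highest was at the peak at 22 bp past the TSS (chr4:49519307-49519506), whose sequence holds the exact CAAAGTCCA at bases 54 to 62. The highest HNF4α score of the whole window, 68.3, lay at -47.0 kb (chr4:49566394-49566530). That HNF4α peak touched a PROX1-only peak over 23.5% of its length, under the limit. A co-bound peak at -738 bp lacked HNF4α. A co-bound peak with HNF4α and a PROX1-only peak (chr4:49516086-49516285) lay at -558 and -194 bp from an internal TSS of *Baat*. The co-bound peak at -14386 bp fell in the promoter of *Mrpl50*.

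*Slc27a5* lies at chr7:13573695-13583541 on the minus strand and had 3 co-bound and 3 PROX1-only peaks. Its promoter held no co-bound peak. A PROX1-only peak lay at -864 bp (chr7:13584305-13584504), and an HNF4α peak with a score of 65.5, with neither HDAC3 nor PROX1, at 8 bp past the TSS. The co-bound peak in its intron at 2129 bp (chr7:13581312-13581511) carried HNF4α with a score of 69.7, the highest of the window, and the co-bound peaks at 4859 and -44577 bp did not carry it. The PROX1-only peak at -15694 bp (chr7:13599135-13599334) was the only one of the 10 PROX1-only peaks with HNF4α, with a score of 34.9. HNF4α covered 6 of the 10 co-bound peaks of both conjugation genes.

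**Figure D2:**
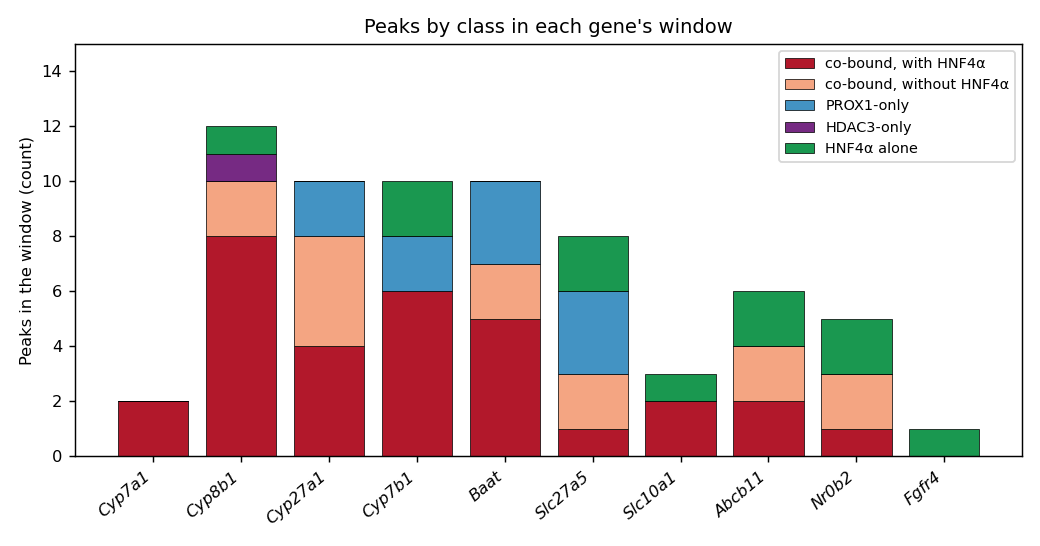
Bars give the number of peaks in the window of each gene, stacked by class. *Cyp8b1* has 10 co-bound peaks and 1 HDAC3-only peak, *Cyp7a1* and *Slc10a1* have no single-factor HDAC3 or PROX1 peak, and *Fgfr4* has 1 HNF4α peak alone.

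Both transporters had a co-bound promoter peak and no PROX1-only or HDAC3-only peak. *Slc10a1* encodes NTCP, which takes conjugated bile acids up from the blood, and lies at chr12:82054172-82068971 on the minus strand. Its 2 co-bound peaks both carried HNF4α, at -137 bp with a score of 53.7 and at -8167 bp with a score of 123.9. The latter was the highest score of the 45 HNF4α peaks of the 10 genes and above 99.5% of the HNF4α list. The promoter sequence holds matches to the C/EBP consensus TTGCNNAA at bases 67 to 74 and 138 to 145 and the hexamer AGGTCA at bases 55 to 60. An HNF4α peak with no HDAC3 or PROX1 lay at 1801 bp past the TSS with a score of 33.0 (chr12:82067104-82067236).

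*Abcb11* encodes BSEP, the pump that exports bile acids into the canaliculus, and lies at chr2:69076339-69180671 on the minus strand. It had 4 co-bound peaks, of which 2 lay in the promoter within 350 bp of each other. The nearer, at -69 bp, lacked HNF4α although its sequence holds an HNF4 match at bases 96 to 104, and the other at -419 bp (chr2:69180990-69181189) carried HNF4α with a score of 65.0 and holds no HNF4 match. From the last base of that match, bases 104 to 116 of the nearer peak read AGGCCATTGACCT, which has 1 mismatch to AGGTCANTGACCT, the inverted repeat known to be bound by FXR. The co-bound peak at -43691 bp (chr2:69224262-69224461, in an intron of *Dhrs9*) had a score of 63.1, and the peak inside the gene at 53324 bp had no HNF4α. HNF4α peaks with no HDAC3 or PROX1 lay in the introns, with scores of 24.0 and 28.3.

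Of the regulators, *Nr0b2* had co-bound peaks in its window and *Fgfr4* had none. *Nr0b2* encodes SHP, the co-repressor that is induced through FXR, and lies at chr4:133109291-133112451 on the plus strand. It had 3 co-bound peaks, of which those at -244 and 4199 bp lacked HNF4α and that at -1152 bp (chr4:133108039-133108238) carried it with a score of 66.9. Between the upstream pair, at -519 bp (chr4:133108709-133108834), an HNF4α peak with a score of 59.4 touched neither. *Fgfr4*, the hepatic receptor for intestinal FGF15, lies at chr13:55254001-55270120 on the plus strand and had 0 HDAC3 or PROX1 peaks in its window, and 61.6% of all genes likewise had 0 co-bound peaks. Its single HNF4α peak was centred at 530 bp past the TSS with a score of 49.5, between the median and the upper quartile of the list (60.8). The nearest co-bound peak assigned to it by nearest TSS lay 31.0 kb past the TSS, beyond the window. *Cyp7b1* and *Slc27a5* shared with *Fgfr4* the lack of a co-bound promoter peak. *Slc27a5* and *Fgfr4* also shared an HNF4α promoter peak without HDAC3 or PROX1, which *Nr0b2* had as well, beside its co-bound promoter peak.

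**Figure D3:**
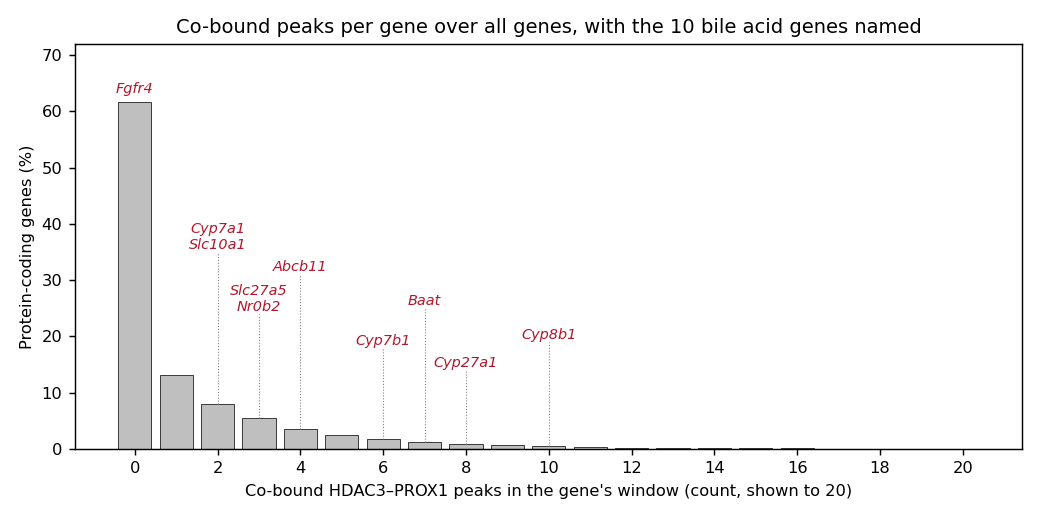
Bars give the percentage of 22367 protein-coding genes with each number of co-bound peaks in the window, with the 10 genes named above the bar of their own count. *Cyp8b1*, *Cyp27a1*, *Baat* and *Cyp7b1* lie in the right tail, with more co-bound peaks than at least 94.2% of genes. Counts are not scaled by window length. Per 100 kb, *Cyp7b1* had 2.69 co-bound peaks, fewer than *Cyp7a1* (3.22), while *Cyp8b1*, *Cyp27a1* and *Baat* had 18.5, 10.5 and 10.1.

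HNF4α covered 31 of the 45 co-bound peaks of the 10 genes, or 68.9% (95% CI 54.3 to 80.5), against 61.3% (60.6 to 62.0) of all 20039 co-bound peaks, and the interval of the 10 genes includes the value of the whole list. Of the 14 others, 13 were not touched by HNF4α. At PROX1-only peaks the count was 1 of 10, or 10.0% (95% CI 1.79 to 40.4), against 36.7% of all PROX1-only peaks, which again lies inside the interval. The order co-bound over PROX1-only is thus that of the whole lists. Just inside the limit of 50% lay the *Abcb11* peak at -43691 bp, covered over exactly 50% of its length. The *Baat* peak at -43021 bp was covered over 54.5% and the *Cyp8b1* peak at 3191 bp over 56%. Below the limit, the co-bound peak with the most cover was that of *Cyp27a1* touched over 24.5%, which is not close to 50%. At the edge of the windows, the PROX1-only peak of *Baat* at -49.9 kb was inside and that of *Cyp7b1* at -52.8 kb outside.

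Of the 45 co-bound peaks of the 10 genes, 30 lay beyond 1 kb of a TSS. The other 15 (33.3%) fell within 1 kb of a protein-coding TSS, against 7.91% of all co-bound peaks, and the 45 lay a median of 4.17 kb from a TSS against 17.6 kb. Since the windows were chosen around genes, part of this difference follows from the choice. Within 1 kb of their own TSS lay 11 peaks of 7 genes (*Cyp7a1*, *Cyp8b1*, *Cyp27a1*, *Baat*, *Slc10a1*, *Abcb11* and *Nr0b2*), and 6.25% of all genes had such a peak. The other 4 promoter peaks lay at neighbouring genes, among them *Fam198a* and *Mrpl50*. HNF4α covered 11 of the 15 promoter peaks (73.3%, 95% CI 48.0 to 89.1) and 20 of the 30 others (66.7%, 48.8 to 80.8), and the intervals overlap. The 4 promoter peaks without HNF4α were those of *Cyp27a1*, *Baat*, *Abcb11* and *Nr0b2*, and in each of these genes another co-bound peak nearby carried it.

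Outside promoters, 15 of the 45 peaks were intergenic, 11 intronic and 4 exonic. Upstream of the TSS lay 31 and downstream 14, and 28 were within 10 kb of it. The windows reach 50 kb upstream but only 2 kb past the end of the gene, so the split by side follows in part from the rule. The nearest TSS was that of the gene itself for 37 and that of another gene for 8. Neighbouring co-bound peaks of a gene were a median of 3.16 kb apart over 36 pairs, and 6 pairs were closer than 1 kb.

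The scores of HNF4α at these sites ran from 22.6 to 123.9, with a median of 54.7 over the 31 peaks, against 52.3 at all co-bound peaks with HNF4α. Of the 31, 23 were above the median of the HNF4α list and 5 were in its top 10%: the *Slc10a1* peak at -8167 bp, the *Cyp7a1* promoter, the *Cyp8b1* promoter, the *Cyp8b1* peak at -10529 bp and the intronic *Cyp7b1* peak. HNF4α peaks with neither HDAC3 nor PROX1 numbered 11 in the windows and had scores from 24.0 to 65.5 with a median of 34.4, against 32.5 over all 7608 such peaks. The strongest of these were at the *Slc27a5* and *Nr0b2* promoters.

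**Figure D4:**
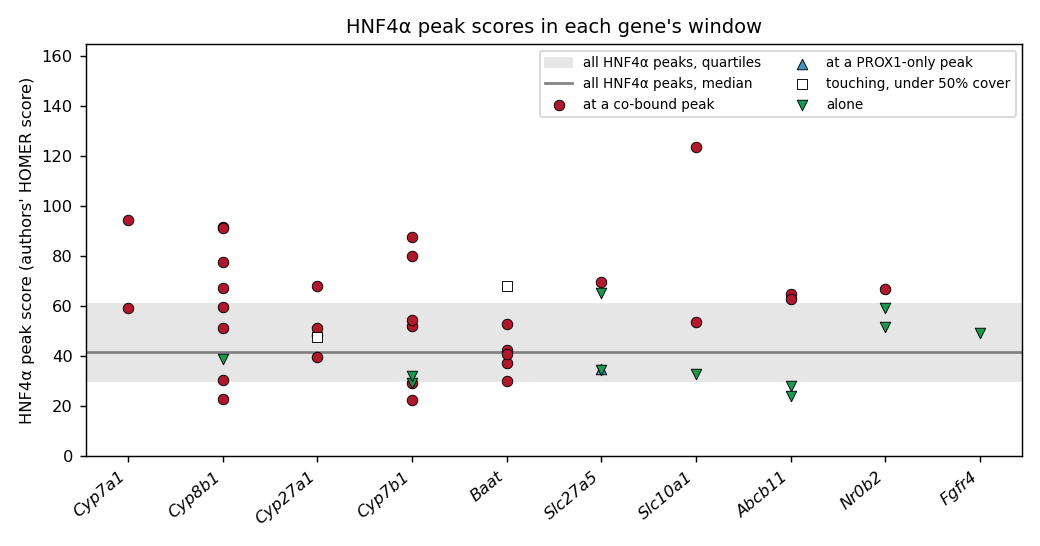
Each symbol is an HNF4α peak in the window of a gene, at its score in the authors' list, with its shape and colour by the HDAC3 or PROX1 peak it covers. The line and band are the median (41.9) and quartiles (30.2 to 60.8) of the whole list, and the highest points are the *Slc10a1* upstream peak at 123.9 and the *Cyp7a1* promoter at 94.7.

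Motif content was measured in windows of 200 bp on the peak centres, on both strands, as the share of windows with a match. For HNF4, CAAAGTCCA with at most 1 mismatch matched in 14 of the 45 windows (31.1%, 95% CI 19.5 to 45.7). The share was 20.9% over all co-bound windows and 6.33% in windows placed 2 kb to either side of all co-bound peaks. Matches were held by 12 of the 31 windows with HNF4α (38.7%, against 28.4% in the whole list) and by 2 of the 14 without it (14.3%, against 9.05%). The first of these differences turned in windows of 100 bp, with 5 of 31 (16.1%, against 18.6%), and with 1 mismatch more (77.4%, against 79.5%). By gene, the match was found at 2 of 2 co-bound peaks of *Cyp7a1*, 4 of 10 of *Cyp8b1*, 3 of 6 of *Cyp7b1* and 3 of 7 of *Baat*, at 1 peak each of *Cyp27a1* and *Abcb11*, and at 0 peaks of *Slc27a5*, *Slc10a1* and *Nr0b2*. The HNF4α scores had a median of 67.9 at the 12 peaks with a match and 51.4 at the 19 without, and 66.0 and 47.1 over all co-bound peaks with HNF4α. The highest score of the 31, at *Slc10a1*, was nevertheless at a peak without a match.

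The sites of other bile acid regulators were searched in the same windows. The exact hexamer AGGTCA was found in 16 of 45 windows (35.6%, against 34.6% of all co-bound windows). The LRH-1 site TCAAGGTCA contains the hexamer. With at most 1 mismatch it was found in 9 windows (95% CI 10.9 to 33.8%, against 16.1% of all co-bound windows). All lay at peaks with HNF4α, or 9 of 31 such windows (29.0%, 95% CI 16.1 to 46.6). Of the windows without HNF4α, 0 of 14 held the site (upper limit of the interval 21.5%). In the whole list the shares with and without HNF4α were 16.9% and 14.8%, each inside the interval of the 10 genes. The split depended on the setting, with 24 of 31 and 6 of 14 windows at 1 mismatch more, and 1 of 31 and 0 of 14 with no mismatch. Both *Cyp7a1* peaks and 3 of 10 *Cyp8b1* peaks held the site with at most 1 mismatch. The FXR inverted repeat AGGTCANTGACCT, with at most 2 mismatches, was found in 5 windows (11.1%, 95% CI 4.84 to 23.5, against 3.98% of all co-bound windows and 1.02% of the flanking windows). These were the *Abcb11* peaks at -69 and -43691 bp, the *Cyp8b1* peak at -10529 bp, the *Cyp7b1* peak at -11116 bp and the *Nr0b2* peak at 4199 bp. Of the 7 motifs searched, this is the one whose interval lay above the share of the whole list, on 5 peaks, of which 2 belong to *Abcb11*. The interval no longer did so in windows of 300 bp (4.84 to 23.5%, against 4.86%) or with 1 mismatch more (26.7%, 16.0 to 41.0, against 18.9%), and 0 of 45 windows matched with no mismatch.

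For the other motifs the intervals at these settings include the shares of all co-bound windows. C/EBP, TTGCNNAA, was found in 10 windows (22.2%, against 26.1%), of which 4 belonged to *Cyp7b1*. The HNF1 palindrome GTTAATNATTAAC with at most 2 mismatches was found in 2 windows (4.44%, against 4.71%). The direct repeat AGGTCANNAGGTCA of the Rev-erb receptors, with at most 2 mismatches, was found in 1 window (2.22%, 95% CI 0.393 to 11.6, against 6.73%). A match describes these letters in the window and is not a bound site.

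**Figure D5:**
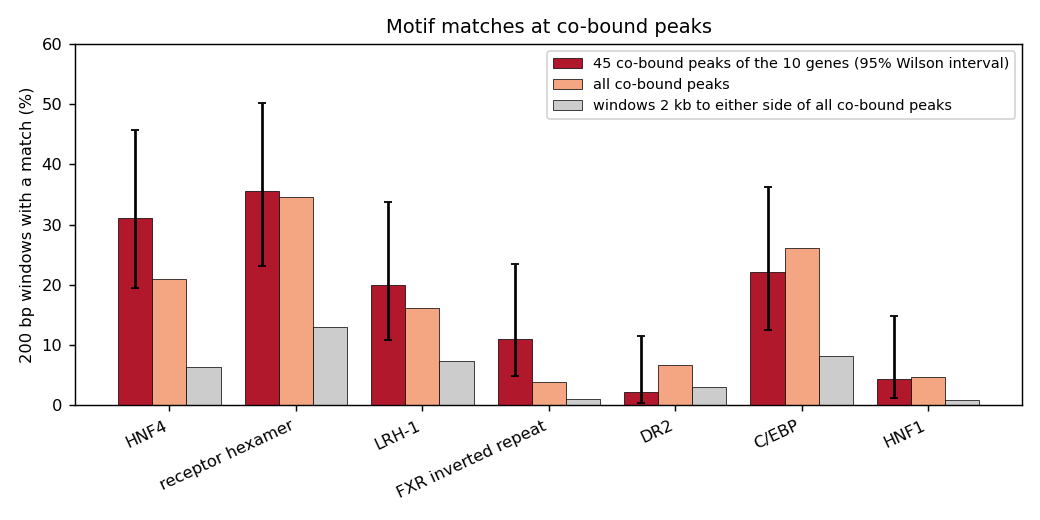
Bars give the percentage of 200 bp windows with at least 1 match to each motif at the 45 co-bound peaks of the 10 genes (with 95% Wilson intervals, counting error only), at all co-bound peaks, and in windows 2 kb to either side. The receptor hexamer is AGGTCA, and the largest ratio of the 10 genes to all co-bound peaks is that of the FXR inverted repeat, 11.1% against 3.98%.

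The binding at the 10 genes was set beside that at 32 other genes of bile acid metabolism. Of these, 27 had a co-bound peak (38.4% of all genes) and 26 a co-bound peak with HNF4α (31.1% of all genes). Their windows had a median length of 91.2 kb against 67.4 kb over all genes, and these counts are not scaled by window length. HNF4α covered 122 of their 174 co-bound peaks, or 70.1% (95% CI 62.9 to 76.4), summed over windows. The windows of *Abcg5* and *Abcg8* overlap and shared 4 of these peaks, so that 119 of 170 distinct peaks carried HNF4α (95% CI 62.7 to 76.4%). Counted once, they made 5.14 co-bound peaks per 100 kb, beside 5.04 at the 10 genes, whose windows shared none. Among 10 other enzymes of synthesis, 9 had co-bound peaks, and the exception was *Hsd3b7*. *Scp2*, which encodes a sterol carrier and thiolase of side-chain shortening, had the most, with 18, of which 10 carried HNF4α. Among 6 regulators, 5 had co-bound peaks, with 12 at *Nr5a2* (LRH-1) and 11 at *Nr1h4* (FXR). All 11 genes listed as liver transporters had them, with 48 of 61 distinct peaks covered by HNF4α (78.7%, 95% CI 66.9 to 87.1). This list was led by *Abcc2*, the canalicular conjugate pump, with 10 of 11, and it includes the enzyme gene *Ephx1*. Among 5 genes known for their work in the ileum, 2 had co-bound peaks (*Slc10a2* and *Fabp6*), 4 peaks in all. HDAC3-only peaks lay in the windows of 8 of the 32 genes, against 7.4% of all genes.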

How the data were processed

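Peak positions were taken from the 3 deposited BED lists. Per the methods, the authors used Bowtie 0.12.7 to align reads to mm9, removed duplicates, pooled replicates and called peaks with HOMER against IgG, with limits on enrichment and reads. Deposited HDAC3 and PROX1 values are positions of peaks (21247 and 27423, with 3 empty lines in each left out), and the deposited HNF4α list gives positions and the authors' HOMER score, whose scaling is not given in the sources used here.

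Genes, TSSs and exons were those of protein-coding genes and transcripts of GENCODE vM1 on NCBIM37, and *Slc51a* and *Slc51b* were matched as *Osta* and *Ostb*. All 10 genes were named with their peaks nearest to the TSS and with the highest score. The members and lists were chosen with earlier results of these data known, so counts were set beside all genes without tests. Alternatives changed the cover, score, window, promoter, motif and background rules. Code tested on simulated data recovered 5000 of 5000 overlaps and 500 of 500 planted matches per motif. Tools were samtools 1.23.1 and Python 3.11.15 with pysam 0.24.0, pandas 2.3.3, numpy 2.4.6, matplotlib 3.10.9 and scipy 1.17.1. RNA-seq, H3K27Ac and knockout libraries were not analysed here, and 1 promoter sequence is not reported here.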

Additional observations from a re-analysis of the deposited data

How the results depend on the processing

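No result has a test, so none can gain or lose significance. Of 147 values recomputed under an alternative, 109 moved by less than their margin and 38 by more. The share of co-bound peaks with HNF4α fell to 33.3% when 75% cover was asked (all co-bound peaks 32.5%) and to 51.1% with HNF4α scores above the median (40.01%). PROX1-only peaks with HNF4α, 1 as reported, numbered 2 at 1 bp of cover, 0 at 75%, 0 above the median score, 0 with 10 kb upstream, 3 with 100 kb and 2 by nearest TSS. PROX1-only peaks numbered 4 with 10 kb upstream. HDAC3-only peaks numbered 0 with 10 kb, 2 with 100 kb, 0 by nearest TSS and 0 without *Cyp8b1*, an alternative chosen after seeing the data, as was the count of distinct peaks of the other bile acid genes. The HNF4 share was 71.1% with 1 mismatch more (all co-bound peaks 71.96%), 4.44% with none (2.84%) and 15.6% in 100 bp windows (13.0%). Among the 12366 genes with any peak, the percentages of genes were 69.4 (co-bound), 56.3 (co-bound with HNF4α), 45.6 (PROX1-only), 13.4 (HDAC3-only), 89.97 (HNF4α) and 11.3 (co-bound promoter). By nearest TSS *Cyp7a1* had 7 co-bound peaks, *Fgfr4* 1 and *Baat* 4. The window of 10 kb left *Cyp8b1* 6 and *Baat* 4, and that of 100 kb gave *Slc10a1* 4. No paired analysis was possible because each list pools its replicates. Pooling and the missing read counts limit every value.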

Other observations

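Peaks whose nearest protein-coding TSS was that of a bile acid gene also lay outside the windows. Downstream of *Cyp7a1* there were 5 co-bound peaks, at 12.7, 17.5, 29.4, 32.6 and 36.4 kb past its TSS, of which 4 carried HNF4α with scores of 37.2, 48.1, 86.7 and 91.9. The farthest (chr4:6166269-6166468) thus had a score close to that of the *Cyp7a1* promoter, 94.7. PROX1-only peaks without HNF4α lay at 13.2 and 36.0 kb. *Fgfr4* had a co-bound peak with HNF4α at 31.0 kb (chr13:55284947-55285146) with a score of 74.0 and a PROX1-only peak with HNF4α at 29.6 kb with a score of 33.9. *Nr0b2* had a co-bound peak at 10.1 kb with a score of 62.2, and *Cyp7b1* a co-bound peak at -55.6 kb with a score of 36.8 and a PROX1-only peak at -52.8 kb with a score of 34.4. These peaks enter no count made with the main windows of the 10 genes. They do enter the counts by nearest TSS, and those upstream of *Cyp7b1* also the counts with 100 kb upstream.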
